A study of Mus musculus with 2 samples.

Results

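The Hox genes were examined in RNA from the vagina of WT and Fbln5-/- mice. Probe sets annotated to exactly 1 gene of the *Hoxa*, *Hoxb*, *Hoxc* or *Hoxd* cluster were taken, which gave 48 of the 45101 probe sets on the array, for 33 genes. Both genotypes were C57/Bl6 females aged 6 months, ovariectomized and then given estradiol at 50 µg/kg/d for 3 d. The WT animals were wild type, and the Fbln5-/- animals lacked fibulin-5, an elastic fibre protein whose loss leads to pelvic organ prolapse in mice. The labels place ovariectomy at day 11 and the series design at 2 weeks, whereas the methods count 2 weeks between ovariectomy and estradiol. Values come from 1 array per genotype. The methods name 2 animals in each group, and pooling of their RNA is not stated in the sources used here. No difference below therefore has a replicate check, and no p-value or error between animals is given.

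Hox proteins are homeodomain transcription factors encoded in 4 clusters, in which the order of genes along the chromosome follows the order in which they act along the body axis. Low paralog numbers belong to anterior regions and high numbers to posterior ones. In the Müllerian ducts, *Hoxa9*, *Hoxa10*, *Hoxa11* and *Hoxa13* are known for successive domains from oviduct through uterus and cervix to upper vagina, and adult stroma is thought to keep such a code as positional memory. Hox proteins bind DNA together with TALE homeodomain cofactors (Pbx, Meis and Pknox proteins), retinoic acid acts upstream of the clusters in the embryo, and Polycomb and Trithorax complexes hold their genes silent or active.

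The arrays carried the markers of the labelled tissue. All 7 squamous epithelial markers (such as *Krt5* and *Krt13*), 8 stromal and 6 smooth muscle markers on the array had signals of at least 100 on both arrays after scaling to a common median, and none of the 4 oviduct, 5 colon and rectum and 5 hair follicle markers reached 100 on either. Of 6 genes listed as uterine gland markers, 4 reached 100 on at least 1 array. With the WT reading first, they were *Cxcl15* (426.3 and 188.2), *Prss29* (105.1 and 209.5), *Foxa2* (132.8 and 87.3) and *Sprr2f* (11590 and 13314). *Sprr2f* belongs to a family of squamous epithelial genes and is not specific to uterine glands. The part of uterine tissue in these readings was not tested. Of 4 urothelial markers 2 reached 100 on at least 1 array, as did 1 of 4 ovarian markers, *Inha*. The brighter of the pair of *Fbln5* probe sets read 410.4 in WT and 30.4 in Fbln5-/- vagina, at least 4.10-fold lower, and whether it lies in the deleted part is not known. The control probe set at the 5′ end of *Gapdh* was lower on the Fbln5-/- array (log2 ratio −4.44), as was that of *Actb* (−1.87). Their middle probe sets were lower too (−1.16 and −1.22), while their 3′ ends had log2 ratios of 0.05 and −0.18. The position of the Hox probe sets along their transcripts was not analysed, so the part of this gradient in the lower signals below was not tested. In whole tissue, fewer cells of a type and less RNA per cell cannot be told apart.

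A scaled signal of 100, the lowest reading kept in the methods, was reached on at least 1 array by 17 of the 33 Hox genes at their brightest probe set (51.5%). Over all 18193 genes with a probe set of their own, 65.6% reached it. Of the 17, 14 reached it on both arrays, while *Hoxa5* and *Hoxc10* did so only on the Fbln5-/- array and *Hoxd11* only on the WT array. The other 16 genes had brightest signals between 2.63 and 79.7. A signal under 100 does not show that a gene was silent, because probe sets differ in how brightly they report, and for that reason signals are compared below between arrays and not between genes.

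**Figure D1:**
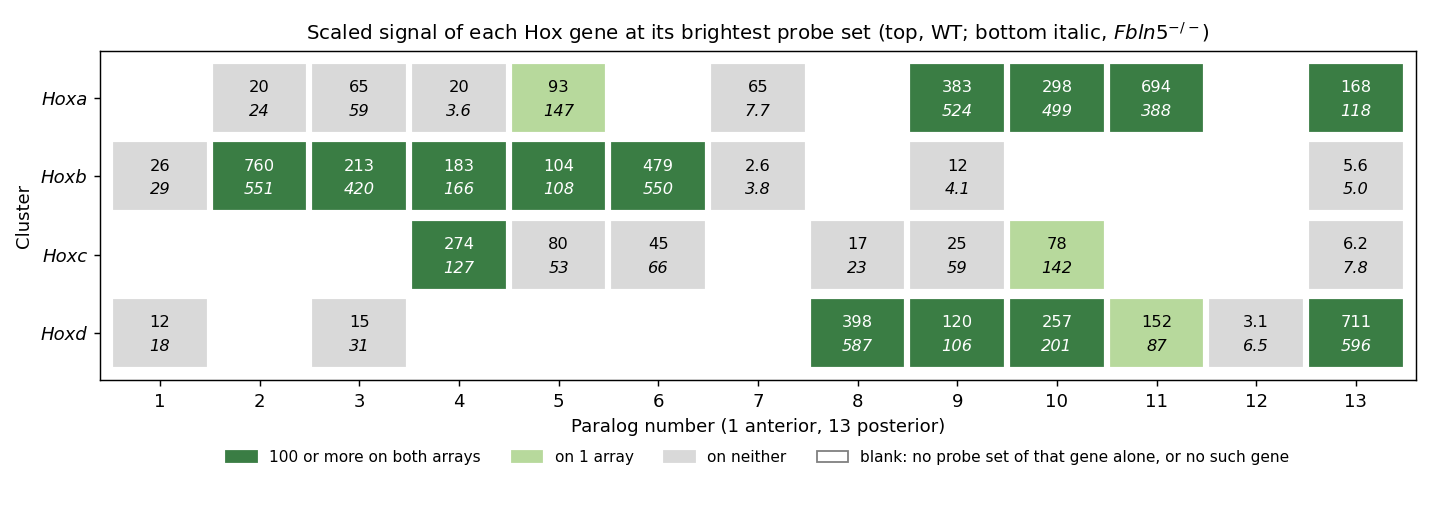
Scaled MAS5 signal of 33 Hox genes at the brightest probe set, by cluster (rows) and paralog number (columns), with the WT value above and the Fbln5-/- value in italics below, 1 array each. Dark green marks genes at 100 or more on both arrays, light green on 1 array and grey on neither. All 4 posterior *Hoxa* genes are dark green, and 5 of the 7 *Hoxc* genes are grey.

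The genes that reached 100 are counted here along each cluster. Since the limit is the same for probe sets of unequal brightness, these counts describe the array's readings and do not order the genes by expression. In *Hoxa*, all 4 posterior genes measured (paralogs 9 to 13) reached it on both arrays, and none of 3 anterior genes (1 to 4) did. In *Hoxd*, 4 of 5 posterior genes and neither of its 2 anterior ones reached it on at least 1 array. In *Hoxb*, 3 of 4 anterior genes and 2 of 3 central genes (5 to 8) reached it, and neither *Hoxb9* nor *Hoxb13* did. In *Hoxc*, 2 of 7 genes reached 100, *Hoxc4* on both arrays and *Hoxc10* on 1. The WT array had 15 of the 33 genes at 100 or more and the Fbln5-/- array 16, with 8 posterior genes on each.

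The 16 genes under 100 on both arrays have no fold, and their readings are given for WT first. In *Hoxa* they were *Hoxa2* (19.9 and 23.7), *Hoxa3* (64.6 and 59.1 at the brightest of 4 probe sets), *Hoxa4* (20.0 and 3.599) and *Hoxa7* (65.0 and 7.71). In *Hoxb* they were *Hoxb1* (26.2 and 29.2), *Hoxb7* (2.63 and 3.80), *Hoxb9* (12.1 and 4.11) and *Hoxb13* (5.64 and 5.04), the last known from prostate and hindgut. In *Hoxc* they were *Hoxc5* (79.7 and 53.2), *Hoxc6* (44.9 and 65.5), *Hoxc8* (16.9 and 23.0), *Hoxc9* (24.9 and 59.1) and *Hoxc13* (6.22 and 7.82), the last known from hair and nail. *Hoxd1* (11.8 and 17.8), *Hoxd3* (14.9 and 31.5) and *Hoxd12* (3.11 and 6.48) complete the 16.

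Among the posterior *Hoxa* genes, *Hoxa13*, which patterns the hindmost part of the tract, read 168.4 in WT and 117.8 in Fbln5-/- vagina, 1.43-fold lower in the latter. *Hoxa11*, a gene of the uterus and cervix, had 694.3 and 387.7 (log2 ratio −0.84, 1.79-fold lower). *Hoxa10*, needed for uterine identity and induced there by sex steroids, ran the other way with 298.4 and 498.7 (1.67-fold higher). Its second probe set stayed under 100 on both arrays. *Hoxa9*, whose domain reaches furthest forward among these, had 382.7 and 524.0 at its brighter probe set (1.37-fold higher) and 151.0 and 98.9 at the other, so its direction depended on the probe set. *Hoxa5*, a central gene also known from lung and adipose tissue, had 92.6 and 146.7, at least 1.47-fold higher against 100. The *Hoxa* genes thus split, with the pair of highest paralog number lower and the others higher at their brightest probe sets.

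Of the 5 *Hoxd* genes at 100 or more, 4 were lower on the Fbln5-/- array. *Hoxd13*, the posterior partner of *Hoxa13* in the urogenital region, had signals of 711.4 and 596.0 (1.19-fold lower), and its second probe set had 111.7 and 43.5, at least 1.12-fold lower. *Hoxd11* had 151.5 and 86.7 (at least 1.52-fold lower), *Hoxd10* had 256.9 and 201.2 and *Hoxd9* had 119.7 and 106.1. *Hoxd8*, the most anterior of the 5, was higher at both of its probe sets, with 398.0 and 586.6 at one (1.47-fold) and 159.3 and 286.0 at the other (1.80-fold). Only *Hoxd8* and *Hoxb3* had 2 probe sets past 100 on both arrays, and these ran the same way for *Hoxd8* and opposite ways for *Hoxb3*.

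Read by paralog number, log2 ratios of the genes that reached 100 followed no single order. Of all 11934 genes measured, 7592 were above 0 and 4342 below, with a median of 0.16. The 4 anterior genes had a median of −0.30, with 3 below 0 and 1 above. The 4 central genes were all above 0, between 0.06 and 0.66. The lowest of them, *Hoxb5*, was under the median of all genes, and its sign changed with the scaling. Of the 9 posterior genes 6 were below 0 and 3 above, with a median of −0.26. The 4 posterior genes of groups 11 to 13, a grouping made after the values were seen, were all below 0.

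The *Hoxb* genes at 100 or more were all anterior or central. *Hoxb6* had signals of 479.3 and 549.6, *Hoxb5* had 104.0 and 108.4 and *Hoxb4* had 183.0 and 165.8, all within 1.15-fold between the arrays. *Hoxb2*, a hindbrain gene in the embryo, had 760.3 and 550.7 (1.38-fold lower). *Hoxb3* read 213.1 and 420.4 with the brighter of its probe sets, the highest log2 ratio among the 17 (0.98), but 196.6 and 133.7 at the other (log2 ratio −0.56). These opposite values leave no direction for *Hoxb3*. *Hoxb7* alone read 2.63 and 3.80, whereas a probe set annotated to *Hoxb7* and *Hoxb8* together, and so not counted among the 48, had 342.9 and 117.7, 2.91-fold lower.

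*Hoxc4*, which takes part in anterior patterning and is also used by lymphocytes, had signals of 274.4 and 126.9 at its single probe set. This was 2.16-fold lower (log2 ratio −1.11), and of the 17 genes it was the 1 that differed by 2-fold or more at its brightest probe set, beside the shared *Hoxb7* and *Hoxb8* probe set above. With 32 added to each signal its log2 ratio was −0.95, under the 2-fold limit. *Hoxc10*, a posterior gene expressed in hindlimb and fat, had 77.6 and 141.9, at least 1.42-fold higher. All other *Hoxc* genes measured (*Hoxc5*, *Hoxc6*, *Hoxc8*, *Hoxc9* and *Hoxc13*) were under 100 on both arrays at each of their probe sets. *Hoxa5* and *Hoxc10* were the Hox genes that passed 100 on the Fbln5-/- array and not on the WT array. Fat markers were higher on the Fbln5-/- array too. Of 5 adipocyte markers, 3 reached 100 and all 3 were at least 2-fold higher. *Adipoq* had 104.1 and 1131, *Fabp4* had 1980 and 5703, and *Ucp1*, under 100 in WT, had 9.63 and 696.3. The 5 had a summed signal of 2137 for WT and 7645 for Fbln5-/-, while *Lep* and *Cidec* stayed under 100 on both. Their part in the *Hoxa5* and *Hoxc10* signals was not tested.

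**Figure D2:**
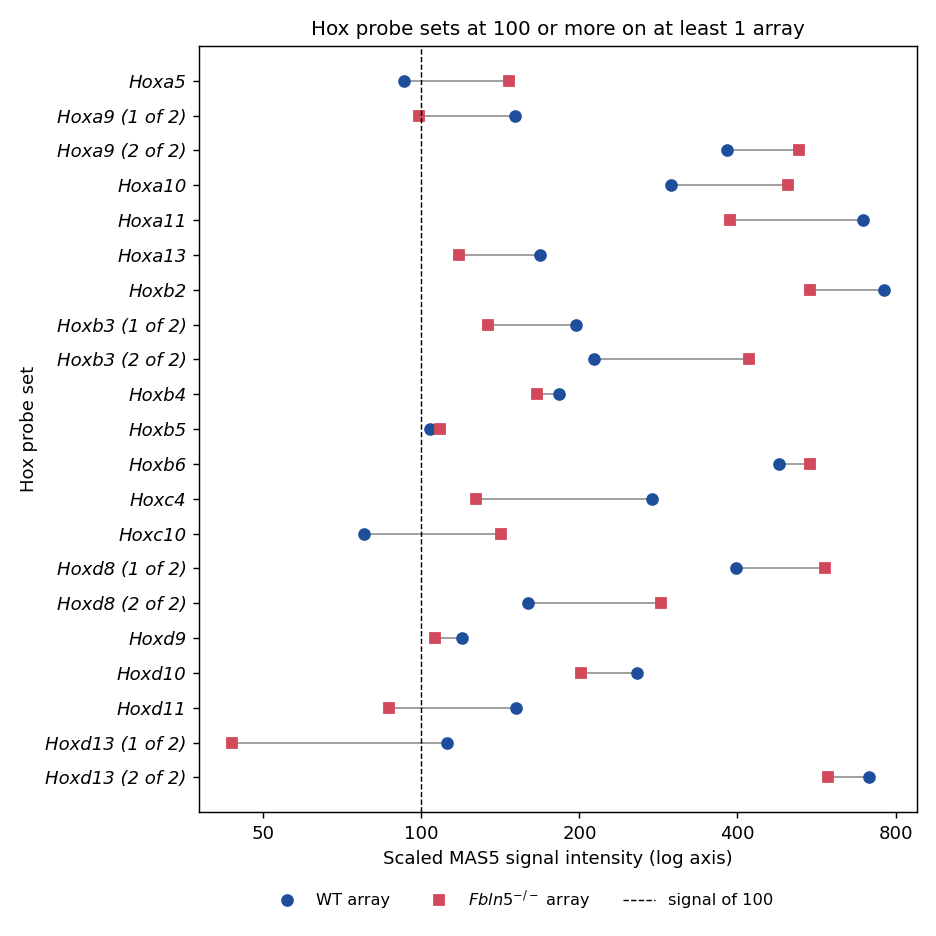
Scaled MAS5 signal (log axis) of the 21 Hox probe sets that reached 100, in order of cluster and paralog number. Circles are the WT array, squares the Fbln5-/- array, 1 array each, and the dashed line is a signal of 100. *Hoxc4* has a wide gap (274.4 and 126.9), and the pairs of probe sets for *Hoxa9* and *Hoxb3* run in opposite directions.

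Sequence upstream of 3 of these genes is shown from RefSeq (GRCm38.p6), 250 bases up to the transcription start, 5′ to 3′ on the strand of the gene. *Hoxc4* (chr15:103034145-103034394, plus strand) and *Hoxa11* (chr6:52245811-52246060, minus strand) have the lowest log2 ratios at their brightest probe sets among the Hox genes that reached 100. *Hoxd13* (chr2:74667975-74668224, plus strand) is the most posterior gene of its cluster. Capitals mark a match on either strand to AGGTCA, the letters bound by one unit of nuclear receptors such as the estrogen and retinoic acid receptors. Matches to TTTATG, a core letter string of caudal and posterior Hox sites, and to TGATNNAT, a Hox and Pbx composite, were searched too and not found in these 3.
Hoxc4: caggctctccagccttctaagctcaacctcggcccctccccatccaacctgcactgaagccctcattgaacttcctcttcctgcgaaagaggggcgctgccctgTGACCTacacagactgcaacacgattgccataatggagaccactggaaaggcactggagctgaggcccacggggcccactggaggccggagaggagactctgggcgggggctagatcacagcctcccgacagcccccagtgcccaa
Hoxa11: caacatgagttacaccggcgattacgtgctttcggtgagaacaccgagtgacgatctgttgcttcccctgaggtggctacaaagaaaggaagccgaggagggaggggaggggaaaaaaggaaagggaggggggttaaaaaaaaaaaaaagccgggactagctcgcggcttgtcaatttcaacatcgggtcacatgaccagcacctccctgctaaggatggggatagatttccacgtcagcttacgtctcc
Hoxd13: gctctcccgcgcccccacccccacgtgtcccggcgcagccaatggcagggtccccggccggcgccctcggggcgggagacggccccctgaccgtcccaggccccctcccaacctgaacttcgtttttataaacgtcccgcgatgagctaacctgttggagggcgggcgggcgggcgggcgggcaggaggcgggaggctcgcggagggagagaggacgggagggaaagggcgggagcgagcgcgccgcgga
The GC content of these windows was 62.0% for *Hoxc4*, 52.0% for *Hoxa11* and 74.4% for *Hoxd13*. The promoter table held 22 Hox genes, of which 12 were among the 17 that reached 100, with 14 promoters. Of these 14, 4 held AGGTCA (*Hoxd10*, *Hoxd8*, *Hoxb4* and *Hoxc4*), and 1, of *Hoxd11*, held both other strings. Over all 32851 promoters the shares with a match were 14% for AGGTCA, 10.8% for TTTATG and 7.68% for TGATNNAT. A match is a match of letters and not a bound site.

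Over the 17 genes, none was at least 2-fold higher and 1 was at least 2-fold lower. Of all 11934 genes measured, 7.21% differed by 2-fold or more upward and 4.77% downward, and of the 5153 genes whose mean signal lay in the range of the Hox genes (106.2 to 655.5), 8.56% were higher and 5.24% lower. A single Hox gene of 17 is near the background share. Rescaling so that the median probe set measured on both arrays had a ratio of 1 changed the split of all genes from 861 higher and 569 lower to 679 and 698, and left the Hox counts at 0 and 1. The median log2 ratio of the Hox genes was −0.14, beside 0.16 for all genes measured, with 7 Hox genes above that value and 10 below it. Their median absolute log2 ratio was 0.52, and that of genes in the same signal range was 0.40. Of the 21 Hox probe sets past the limit, 2 were at least 2-fold lower and none higher, those of *Hoxc4* and the dimmer one of *Hoxd13*, which against 100 was only 1.12-fold lower. Over all probe sets of 1 gene, 8.65% were lower and 6.29% higher.

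The limit of what these ratios can carry shows in genes with several probe sets. Among 4114 genes with more than 1 probe set at 100 or more on both arrays, log2 ratios within a gene had a pooled SD of 0.52. The 14 Hox genes at 100 or more on both arrays had a median absolute log2 ratio of 0.46, a measure unlike an SD. Of 4 Hox genes with a pair of probe sets past the limit, *Hoxa9* and *Hoxb3* gave opposite directions.

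**Figure D3:**
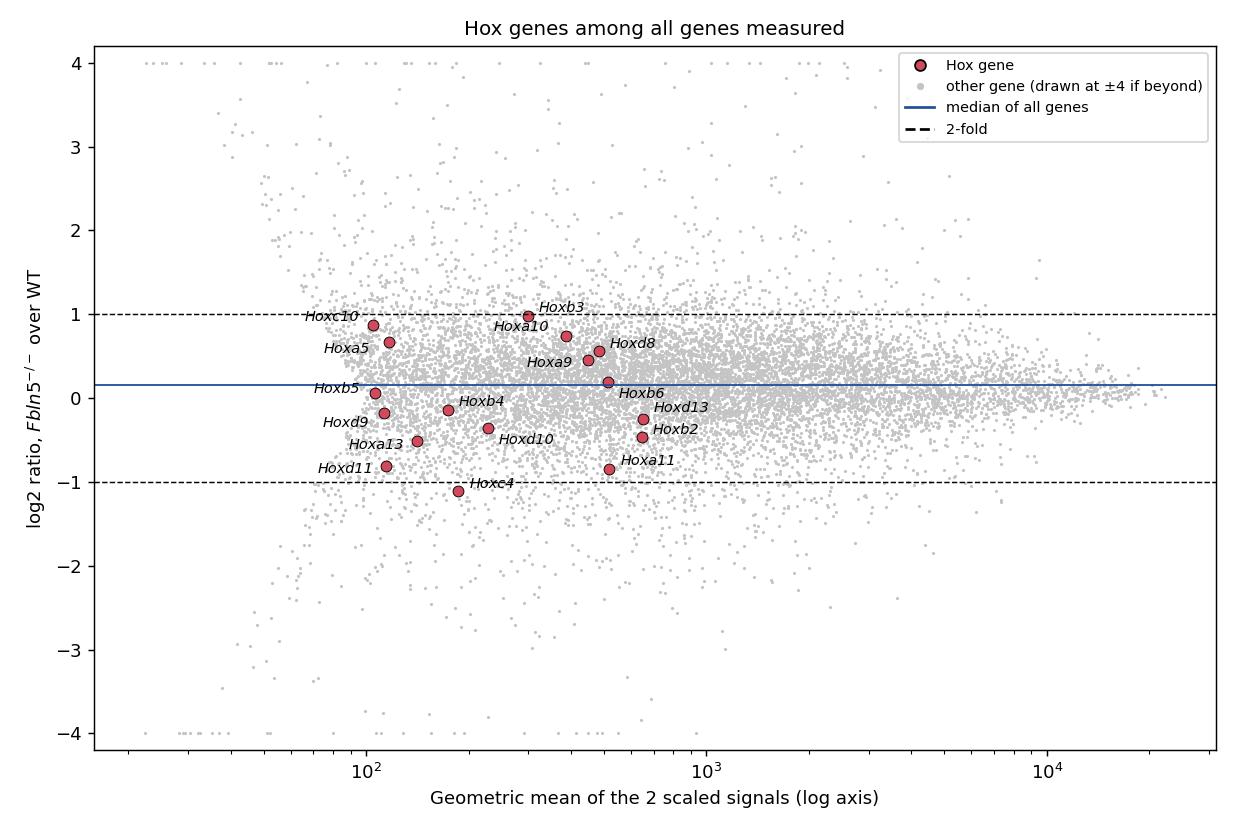
Log2 ratio (Fbln5-/- over WT, 1 array each) against the geometric mean of both scaled signals (log axis) for all 11934 genes measured, with the 17 Hox genes in red and other genes drawn at 4 or −4 where they lie beyond. Dashed lines mark 2-fold and the blue line the median of all genes (0.16). *Hoxc4* lies below the lower dashed line, and the other 16 Hox genes lie between the lines.

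Transcripts beside the Hox genes were read on the same arrays. *Hoxa11os*, the antisense RNA at *Hoxa11*, had signals of 242.8 and 131.6 (log2 ratio −0.88), close to the −0.84 of *Hoxa11*, and whether their probe sets share targets was not tested. It was the 1 of 3 noncoding Hox RNAs on the array that reached 100. *Evx1*, a homeobox gene that follows *Hoxa13* in the gene order, had 247.9 and 145.7 (1.70-fold lower). At the opposite end of the cluster *Skap2*, a signalling adaptor, had 514.8 and 987.0 (1.92-fold higher) and ran the same way at both other probe sets. *Hibadh*, a metabolic enzyme that follows *Evx1* at the posterior end, had 2511 and 3009 at one probe set and 1836 and 1891 at the other, so the genes at that end did not all run one way. *Calcoco1*, beside the *Hoxc* cluster at its *Hoxc13* end, had 452.7 and 1455 (3.21-fold higher), and *Smug1*, at the *Hoxc4* end, had 561.4 and 708.2. *Mtx2* and *Lnpk*, which flank *Hoxd*, were within 1.29-fold. Of the 9 flanking genes on the array 7 reached 100, with 1 at least 2-fold higher and none lower.

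Of 10 TALE cofactors on the array, 9 reached 100 on both arrays and none was 2-fold different at its brightest probe set. *Meis2* had signals of 1279 and 2382 (1.86-fold higher) and was higher at all 4 of its probe sets, and *Meis1* had 1333 and 1752. *Pbx3* had 457.1 and 628.5 and *Pbx2* had 1038 and 1031, although both other *Pbx2* probe sets were lower, by 0.94 on the log2 scale at one and to 31.9 from 140.6 at the other. *Pknox1* had 301.1 and 237.3, and both of its other probe sets were under 100 on the Fbln5-/- array. *Tgif1* had 624.0 and 478.3. The median log2 ratio of the 9 was 0.20, beside 0.16 for all genes. Caudal, ParaHox and Evx genes were mostly under 100, with *Evx1* the 1 of 8 that was not.

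The retinoic acid genes had a median absolute log2 ratio of 0.85, beside the 0.52 of the Hox genes, a difference that was not tested. Of 16 on the array 14 reached 100, and 2-fold or more separated the arrays upward for 2 and downward for 4 (upward for 1 and downward for 3 once readings under 100 were raised to 100). *Aldh1a3*, an enzyme that makes retinoic acid, had 118.7 and 1150 (9.69-fold higher) and was higher at each of its 3 probe sets. *Cyp26b1*, which degrades retinoic acid, had 1986 and 337.3 (5.89-fold lower, 1 probe set). *Rarg*, the retinoic acid receptor of stratified epithelium, had 2459 and 915.4 (2.69-fold lower) and was lower at its second probe set as well. *Crabp1*, which binds retinoic acid in the cytoplasm, had 3568 and 1449 (2.46-fold lower). *Rara* and *Stra6* were at 100 or more on 1 array only, *Rara* at least 1.61-fold lower and *Stra6* at least 1.71-fold higher. *Crabp2*, the other cytoplasmic binding protein, had 8043 and 9072. *Aldh1a2*, the stromal enzyme, had 4596 and 2576 (1.78-fold lower), and *Rdh10* and *Dhrs3* were higher by 1.82-fold and 1.78-fold. Over the list, the median was −0.11.

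**Figure D4:**
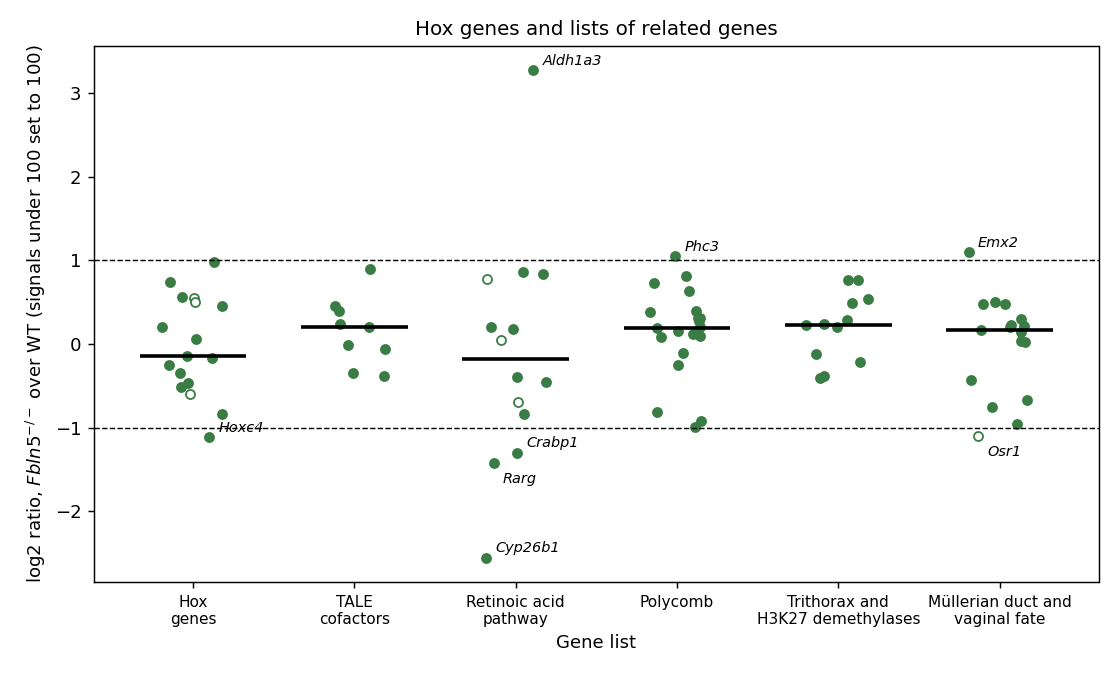
Log2 ratios of Fbln5-/- to WT, with signals under 100 set to 100, for Hox genes and 5 lists of related genes. A filled circle is a gene that reached 100 on each array and an open circle a bound where 1 array stayed under 100. Black bars show the median of each list, 2-fold is drawn as dashed lines, and sideways position within a list has no meaning. The retinoic acid list spreads widely, from *Cyp26b1* (−2.56) to *Aldh1a3* (3.28), and *Hoxc4* is the 1 Hox gene past a dashed line.

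Chromatin regulators of the clusters were at 100 or more throughout. All 20 Polycomb genes on the array reached it on both arrays, and 1 was 2-fold higher, *Phc3*, with 606.0 and 1256. *Ezh2*, the H3K27 methyltransferase, had 990.4 and 1233, and *Ring1*, a ubiquitin ligase of the second complex, had 803.3 and 403.2 (1.99-fold lower). All 12 Trithorax genes and H3K27 demethylases were within 2-fold at their brightest probe sets. A dimmer probe set of *Wdr5* had 513.4 and 127.1 (log2 ratio −2.01), and one of *Kmt2c* had 280.7 and 586.8 (1.06). Dimmer ones of *Men1* (221.8 and 15.2), *Kdm6b* (201.2 and 57.7) and *Cxxc1* (125.7 and 2.26) were under 100 on the Fbln5-/- array only. The list held *Kmt2a*, which maintains Hox expression, at 382.5 and 450.4. The list medians were 0.19 and 0.23.

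Among 23 genes of the Müllerian duct and vaginal fate on the array, 17 reached 100. *Emx2*, a homeobox gene that HOXA10 is known to repress in the uterus, had 329.6 and 707.3 (2.15-fold higher), and *Osr1* was at least 2.14-fold lower (214.4 and 47.5). *Trp63*, the master factor of vaginal squamous fate, had 6103 and 7115 at its brightest probe set. Other *Trp63* probe sets had 290.5 and 104.6, 285.6 and 12.9, and 83.8 and 129.5, so its direction depended on the probe set. *Wnt4* had 7138 and 7243. *Msx1* was lower at both of its probe sets, with 685.4 and 353.9 at one and 263.2 and 113.8 at the other. *Runx1* had 618.6 and 389.5 at its brightest probe set and was higher at 3 others that reached 100 on both arrays, so it has no single direction. The list's median was 0.17. Of 8 genes known as targets of Hoxa10 or Hoxa13, 5 reached 100, with *Itgb3* at 416.0 and 232.9, *Bmp7* at 376.5 and 311.2 and *Bmp2* at 103.6 and 118.7. Of the 5, *Emx2* alone differed by 2-fold at its brightest probe set. *Bmp7* had 466.0 and 163.6 at another probe set (log2 ratio −1.51), and its remaining one was under 100 on the Fbln5-/- array (254.9 and 2.88), so its size of difference depended on the probe set. Of 11 other positional factors 2 reached 100. *Pitx1*, a factor of the hindlimb and pelvic region, had 5521 and 2764 at its brighter probe set (1.997-fold lower) and 5334 and 903.0 at the other. *Irx3* had 683.1 and 997.1. *Tbx4* was under 100 on both arrays (92.8 and 60.6 at its brighter probe set). So were *Tbx5*, *Tbx18*, *Shox2*, *Otx1*, *Otx2*, *En1*, *En2* and *Emx1*.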

How the data were processed

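Vaginal RNA of 1 WT and 1 Fbln5-/- sample was hybridized to Affymetrix mouse expression chips. The authors deposited MAS5 signal intensities on a linear scale (MAS5 per the submitters' processing notes, version and genome build not given in the sources used here), with a mean of 500.0 on both arrays after trimming 2% at each end. Intensities were scaled to a common median (factors 0.972 and 1.03), and 1 signal of 0 was set to 0.1. Readings under 100 on both arrays were left out. A gene was represented by the brightest of its probe sets, log2 ratios are Fbln5-/- over WT, 2-fold was counted, and a signal under 100 on 1 array gives a bound against 100. The platform annotation lists 34958 probe sets with 1 gene, 932 with several, and 9211 are unlisted there; 34754 matched RefSeq GRCm38.p6, used for names, gene order and promoters. The number of arrays limits precision. Hox genes, lists (10 of related genes, 11 of cell markers) and comparisons were chosen with earlier results of these data known. Every Hox gene is accounted for; other lists name genes at least 2-fold different at 100 or more on both arrays and bright members, and others were named after their values were seen. Steps were tested on simulated data, with little noise and differences planted in brighter genes. This did not cover the signals of most Hox genes that reached 100. Alternatives covered scaling, filters, low values, probe set choice and threshold. *Hoxa6*, *Hoxb8*, *Hoxc11*, *Hoxc12* and *Hoxd4* were not analysed here. Python 3.11.15, numpy 2.4.6, pandas 2.3.3 and matplotlib 3.10.9 were used.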

Additional observations from a re-analysis of the deposited data

How the results depend on the processing

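The counts of Hox genes at least 2-fold higher (0) and lower (1, *Hoxc4*) did not move with unscaled signals, quantile normalization, scaling to the 75th percentile or to a median ratio of 1, limits of 200 on 1 array or 100 on both, a floor of 100, averaged probe sets, or probe sets with the suffixes _a_at, _s_at and _x_at left out. With 32 added to each signal, or at a 3-fold threshold, 0 were lower. Without a filter all 33 genes counted, with 3 higher and 4 lower, and those besides *Hoxc4* were under 100 on both arrays. At 200 or more, 10 Hox genes were left of 17. The median of all genes moved from 0.16 to 0.05 between the common median and a median ratio of 1, and the Hox median from −0.14 to −0.25. The Hox median minus the all-gene median was −0.30, lay between −0.38 and −0.19 under the alternatives that kept a limit, and was 0.01 over all 33 genes without a filter. Of 133 values of single Hox genes under alternatives, 132 moved by less than 1.5-fold. The exception was *Hoxb3*, at 0.21 as the mean of its probe sets. The sign changed for *Hoxb5* (−0.02 and −0.05 on the deposited scale and with a median ratio of 1) and for *Hoxa9* (−0.08 as the mean of its probe sets). No paired analysis was possible because each genotype has 1 array, and no sample could be left out.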

Other observations

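Probe sets outside the 48 gave these values. The probe sets annotated to *Hoxd3* and *Hoxd4* together read 26.2 and 33.6 at one and 3.50 and 5.55 at the other, for WT and Fbln5-/-. *Hoxb5os* read 38.8 and 77.1, and *Hoxd3os1* read 51.1 and 66.6 at its brighter probe set. All were under 100 on both arrays, so no fold is given.

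The skeletal muscle markers had a median log2 ratio of 0.35 over 5 of 6 that reached 100, with *Myh2* 2.20-fold higher (169.6 and 372.7). The uterine gland marker *Cxcl15* had signals of 426.3 and 188.2, and its second probe set was under 100 on both arrays. *Prss29*, a protease of uterine glands, had 105.1 and 209.5.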
